A study of Mus musculus with 16 samples.

Results

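The nuclear-encoded genes of the mitochondrial respiratory chain were examined in ribosome-bound RNA of astrocytes and in whole-tissue RNA from the mouse striatum and hippocampus. A gene belonged to the set when its symbol began with Nduf, Uqcr, Cox4, Cox5, Cox6, Cox7, Cox8 or Atp5, or was Sdha, Sdhb, Sdhc, Sdhd or Cyc1, and 93 of the 24060 gene labels in the tables met this rule. They comprise 75 standard subunits (36 of complex I, 4 of complex II, 9 of complex III, 11 of complex IV and 15 of complex V), 7 assembly factors of complex I, 8 tissue isoforms of complex IV and related genes, and Cox7a2l, Atp5s and Atp5sl. Ndufa4, whose product is known as a subunit of complex IV despite its name, was counted there. The 4 mice were adults of both sexes at postnatal day 63 and gave a striatum and a hippocampus each. All of them carried Aldh1l1-creERT2 (hemizygous) and Ribotag (heterozygous) on an FVB background crossed back to C57/Bl6N over 3 generations, about 88% C57/Bl6N. The 4 groups of 4 libraries were striatal IP, hippocampal IP, striatal input and hippocampal input. In the IP, RNA bound to ribosomes with a hemagglutinin (HA) tag was precipitated from the lysate, and the input is RNA of the cleared lysate of the same tissue. The Aldh1l1 promoter directs the Cre recombinase to astrocytes, and Ribotag is an allele of the ribosomal protein gene Rpl22 that gains the HA tag after recombination. The creERT2 recombinase acts only with an inducer, which the labels used here do not describe. All 16 libraries, inputs included, come from mice with both alleles.

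The respiratory chain passes electrons from NADH (complex I) and succinate (complex II) through ubiquinone, complex III and cytochrome c to oxygen at complex IV. Complexes I, III and IV pump protons out of the mitochondrial matrix, and complex V, the ATP synthase, lets them return and makes ATP. Core subunits carry the redox centres or the catalytic sites, while accessory subunits surround them and are often short proteins. Astrocytes are known for strong glycolysis and lactate release, but they also hold mitochondria in their fine processes and oxidise glutamate and fatty acids there.

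The libraries were checked first against marker genes. All 10 astrocyte markers were higher in IP than in input in both regions, with a median log2 fold change of 3.69 in striatum and 3.95 in hippocampus. Of 12 pan-neuronal markers, 11 were lower in striatal IP than in striatal input and 12 were lower in hippocampal IP than in hippocampal input. The neuronal signal left in the IP was 9.68 ± 2.40% of the input level in striatum and 6.22 ± 2.13% in hippocampus (SD, n = 4 each). In each region 7 of 8 oligodendrocyte markers, 7 of 8 microglia markers and all 4 tested endothelial markers were lower in IP, and 1 oligodendrocyte marker was higher in hippocampal IP. The endothelial Cldn5, Flt1 and Ly6c1 and the microglial Cx3cr1, Tmem119, Aif1 and C1qa stayed below 1 FPKM after scaling in every IP library. They entered the test through the inputs, where they are higher, so their direction is no independent check of the IP. Depth, estimated from the steps of the lowest FPKM values, was 13870000 to 21620000 fragments in striatal IP libraries and 4121000 to 8891000 fragments in striatal inputs, and 18780000 to 22510000 fragments in hippocampal IP libraries against 8972000 to 12190000 fragments in the inputs of that region. The striatal inputs of animals 971 and 974 stood apart from those of animals 970 and 977, and not only for the respiratory chain. Both lay below animals 970 and 977 in 48 of the 90 tested members (53.3%) and above them in 15 (16.7%). Of all genes tested, both lay below in 30.1% and above in 32.6%, so the downward side prevailed among the members only. The inputs of 971 and 974 also had the lowest depth estimates of the 16 libraries and the fewest genes above 0 (16048 and 15508). The part of depth in their low values was not tested. Striatal counts by complex and list are therefore also given without these libraries, as are some single members whose call or size depends on them. In bulk samples, a change in the number of cells of a type and a change in RNA per cell cannot be told apart.

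With libraries scaled to the bulk of all genes, the astrocyte IP was higher than the whole tissue for 5 of 7 core subunits of complex I, for Uqcrc1, Uqcrfs1 and Sdha, and for Atp5a1 and Atp5b of complex V, and lower for several short subunits of complexes I and IV. Uqcrc1, a large processing-peptidase-like subunit of complex III, had the highest fold change of the subunits of all 5 complexes in striatum. Its scaled FPKM was 77.8, 85.4, 56.9 and 60.95 in striatal IP and 21.4, 9.59, 8.65 and 20.5 in striatal input (animals 970, 971, 974 and 977, the order used throughout). The lowest IP library stood well above the highest input library. FPKM relates fragments to gene length and to the library's total, and each library was divided by a scaling factor so that most genes have the same level across libraries. The log2 fold change of Uqcrc1 was 2.24 (SE 0.24, adjusted p = 4.04e-07) in striatum and 1.399 (SE 0.24, adjusted p = 6.57e-05) in hippocampus, by limma on log2(FPKM + 1), a scale that understates the change of low genes. The striatal value was 1.68 without striatal inputs 971 and 974 (adjusted p = 3.77e-07). A gene was called changed when its Benjamini-Hochberg adjusted p over 13470 tested genes was below 0.05.

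Of the 93 members, 90 passed the filter of at least 1 FPKM in at least 4 libraries. Cox8c was listed at 0 in all 16 libraries, and Cox8b and Ndufa4l2 stayed under the filter. In striatum 42 members were higher and 13 lower in IP than in input (46.7% and 14.4% of those tested), beside 33.5% and 31.4% of all genes. The hippocampal counts were 30 higher and 14 lower (33.3% and 15.6%), beside 30.1% and 35.5% of all genes. Counted in either direction, 61.1% of the members were called in striatum and 48.9% in hippocampus, beside 65% and 65.5% of all genes, so the members were not called more often than other genes. Their median log2 fold change was 0.46 in striatum and 0.15 in hippocampus, beside 0.010 and -0.105 for all genes. In both regions 29 members were higher, 10 were lower in both, 30 were called in neither, and 0 were called in opposite directions.

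The split into higher and lower members depends on the scaling. With the FPKM as deposited, the median of all genes moved to -0.246 in striatum and -0.513 in hippocampus. The members then split into 30 higher and 28 lower in striatum, and 9 higher and 45 lower in hippocampus. Their median stood 0.391 above that of all genes in striatum and 0.149 above it in hippocampus under that scale, and 0.453 and 0.254 above it with scaling. Without the striatal inputs of animals 971 and 974, 35 members were higher and 11 lower in striatal IP, and the median was 0.169, beside 0.000 for all genes. In that fit 35 members were higher and 18 lower in hippocampal IP, although all hippocampal libraries stayed in. Single animals moved the counts as well. In hippocampus 20 members were higher without animal 970 and 20 without animal 971, and 6 were lower without animal 977. In striatum 30 were higher without animal 971 and 7 lower without animal 974. With neuronal carry-over taken off, 39 were higher and 9 lower in hippocampus.

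**Figure D1:**
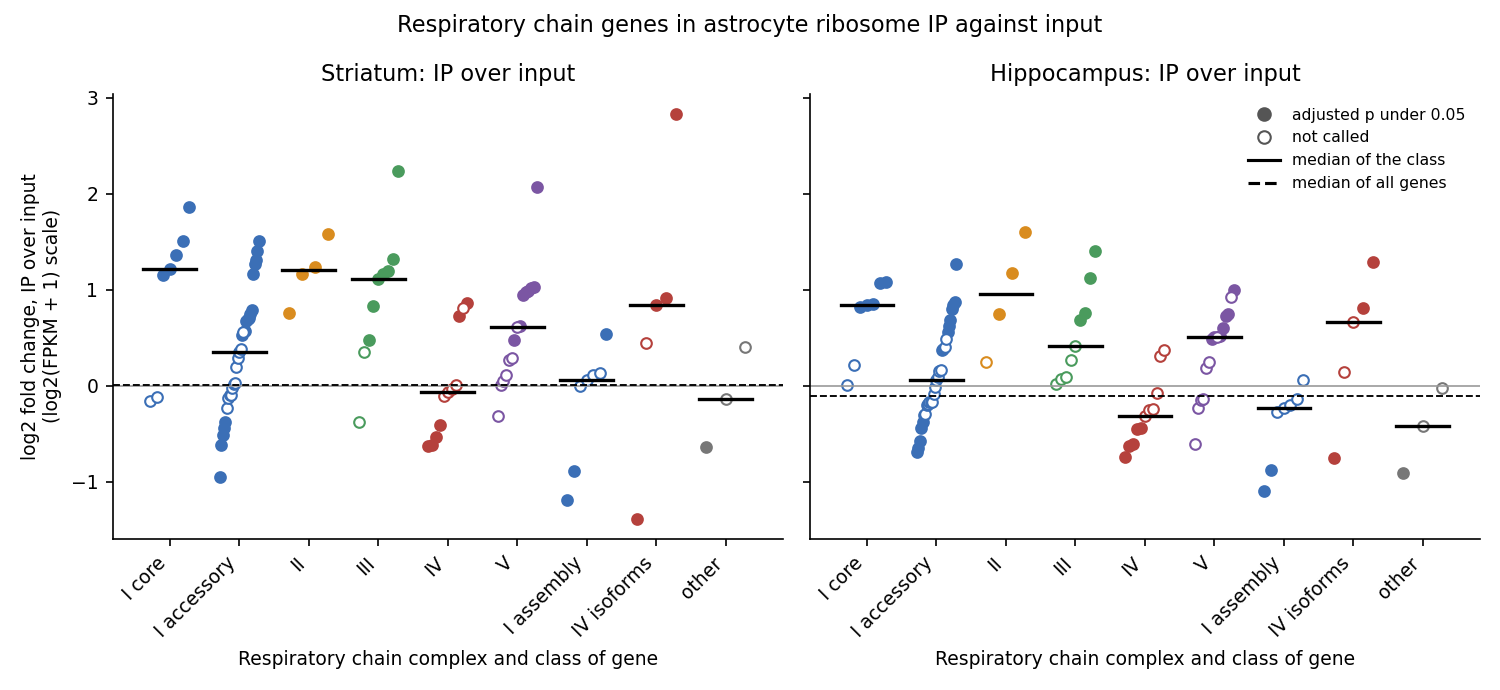
Log2 fold change of IP over input (vertical axis, log2(FPKM + 1) scale) for each tested member, grouped by complex and class, in striatum and hippocampus. Filled points have an adjusted p under 0.05, bars mark class medians and the dashed line the median of all genes. The complex II median is 1.202 in striatum and 0.96 in hippocampus and that of complex IV is -0.06 and -0.32. Without scaling, the all-gene line moves to -0.246 and -0.513.

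Promoters were read from RefSeq for 76 members, whatever their change, as windows of 300 bases that end 50 bases after the annotated start. Motifs of 3 factors long linked to respiratory chain genes were searched on both strands. The NRF1 motif (GCGCA, any base, GCGC) lay in 18 promoters (23.68%, beside 4.818% of all 27025 promoters and 6.91% of the 16527 of coding genes). CCGGAAG (bound by ETS factors such as GABPA) lay in 16 (21.05%, beside 9.136% of all and 12.27% of coding promoters). GCCATNTT (YY1) lay in 17 (22.37%, beside 6.202% and 6.747%). CCAAT was found in 34 (44.74%, beside 38.02% and 38.83%) and TATAAA in 7 (9.211%, beside 14.16% and 12.85%). At least 1 of the first 3 motifs was present in 13 of 22 promoters of members higher in IP in both regions (59.1%) and in 4 of 8 of those lower in both (50%), beside 59.2% of the 76. The 4 promoters below show a pair of genes that were higher in IP in both regions (Uqcrc1, Atp5b) and a pair that were lower (Cox7b, Ndufa1), on GRCm38.p6, 5′ to 3′ on the gene's strand. Capitals mark the motifs, and no 2 marked motifs overlap.
Uqcrc1 (chr9:108936398-108936697, plus strand; NRF1 motif at 2 places): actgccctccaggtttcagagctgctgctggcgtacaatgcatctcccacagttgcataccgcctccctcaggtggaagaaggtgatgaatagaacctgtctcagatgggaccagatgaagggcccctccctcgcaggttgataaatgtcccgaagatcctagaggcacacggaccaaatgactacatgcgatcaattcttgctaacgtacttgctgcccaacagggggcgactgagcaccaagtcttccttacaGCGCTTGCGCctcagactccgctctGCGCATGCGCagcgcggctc
Atp5b (chr10:128083057-128083356, plus strand; 5 CCAAT motifs and a YY1 motif): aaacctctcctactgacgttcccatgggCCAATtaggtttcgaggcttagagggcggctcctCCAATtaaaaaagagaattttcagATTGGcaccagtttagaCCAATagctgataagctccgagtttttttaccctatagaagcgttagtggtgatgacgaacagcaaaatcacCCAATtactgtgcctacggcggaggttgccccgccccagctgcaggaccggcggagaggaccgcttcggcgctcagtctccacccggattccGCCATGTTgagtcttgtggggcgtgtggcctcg
Cox7b (chrX:106015450-106015749, plus strand; 2 CCAAT motifs and a YY1 motif): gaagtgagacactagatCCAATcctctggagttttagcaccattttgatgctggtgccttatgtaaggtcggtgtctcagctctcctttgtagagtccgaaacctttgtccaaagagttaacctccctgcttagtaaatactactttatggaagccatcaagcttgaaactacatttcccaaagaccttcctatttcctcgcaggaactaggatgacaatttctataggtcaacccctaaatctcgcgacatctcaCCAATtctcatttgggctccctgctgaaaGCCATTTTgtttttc
Ndufa1 (chrX:37191189-37191488, minus strand; none of the 5 motifs): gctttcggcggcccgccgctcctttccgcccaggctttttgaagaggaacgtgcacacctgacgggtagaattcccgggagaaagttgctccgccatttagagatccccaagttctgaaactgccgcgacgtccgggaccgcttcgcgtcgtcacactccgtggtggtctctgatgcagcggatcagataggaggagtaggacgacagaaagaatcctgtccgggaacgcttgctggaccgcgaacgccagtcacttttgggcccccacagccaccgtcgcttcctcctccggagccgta
A match is a description of these letters and not a binding site, and genes that changed in opposite directions share the YY1 and CCAAT motifs here.

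Complex I, which oxidises NADH, is described by class of subunit, and the difference between the classes was not tested. Of its 7 nuclear core subunits, 5 were higher in IP in each region (71.4%, median log2 fold change 1.22 in striatum and 0.84 in hippocampus) and 0 were lower, beside 33.5% higher and 31.4% lower of all genes in striatum and 30.1% and 35.5% in hippocampus. Of the 29 accessory subunits, 12 were higher and 5 lower in striatum (median 0.36), and 9 were higher and 5 lower in hippocampus (median 0.06). These are 41.4% higher and 17.2% lower in striatum and 31.0% and 17.2% in hippocampus, so the share of higher subunits in hippocampus was near that of all genes. Over all 36 subunits the split was 17 higher and 5 lower in striatum and 14 and 5 in hippocampus. On FPKM as deposited it was 13 higher and 13 lower in striatum, and 2 higher and 18 lower in hippocampus. Without striatal inputs 971 and 974, 15 were higher and 3 lower in striatum, with 5 of the 7 core subunits higher (median 0.897).

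Ndufv1, the flavoprotein that takes the electrons from NADH, led the core subunits in striatum. It had 67.3, 75.1, 43.3 and 45.8 FPKM in striatal IP, against 19.5, 12.9, 6.48 and 27.7 FPKM in striatal input, where animal 974 was lowest. Its values were 73.8, 71.7, 61.5 and 60.7 FPKM in hippocampal IP and 30.4, 32.7, 26.7 and 35.1 FPKM in hippocampal input. The IP and input ranges did not overlap in either region, and the log2 fold change was 1.87 (SE 0.30, adjusted p = 4.12e-05) in striatum and 1.08 (SE 0.30, adjusted p = 0.0046) in hippocampus. The striatal value was 1.24 without striatal inputs 971 and 974 (adjusted p = 0.000129). Ndufs7, an iron-sulfur subunit near the quinone site, changed by 1.51 (adjusted p = 3.78e-06) in striatum and 0.84 (adjusted p = 0.00116) in hippocampus. Without scaling both changes lost their call in hippocampus. Ndufs1, the largest iron-sulfur subunit, had inputs close together, with 18.4, 18.8, 14.3 and 12.9 FPKM in striatal IP against 6.31, 6.25, 6.85 and 7.08 FPKM in striatal input. Its log2 fold change was 1.15 (SE 0.12, adjusted p = 2.92e-07) in striatum and 1.07 (SE 0.12, adjusted p = 5.56e-07) in hippocampus. Ndufs8, another iron-sulfur subunit, changed by 1.36 (adjusted p = 0.000421) in striatum and 0.82 (adjusted p = 0.0163) in hippocampus. The exons of Ndufs1 overlap other genes on the opposite strand, and the library kit does not mark strand.

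The core subunits Ndufs3 and Ndufv2 did not pass the test in either region. Ndufs3 had 39.1, 44.2, 39.99 and 30.9 FPKM in striatal IP and 42.7, 51.9, 38.2 and 39.6 FPKM in striatal input, overlapping ranges with a log2 fold change of -0.16 (adjusted p = 0.295). Ndufv2 differed by -0.12 (adjusted p = 0.431) in striatum and 0.22 (adjusted p = 0.145) in hippocampus.

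Among the accessory subunits of complex I, Ndufc2, a membrane-arm subunit, was higher in IP in both regions and Ndufa1, a short membrane-arm subunit, was lower in both. Ndufc2 had 91.3, 94.4, 52.2 and 66.5 FPKM in striatal IP against 33.4, 20.4, 15.3 and 39.6 FPKM in striatal input, and 113, 123, 93.5 and 111 FPKM in hippocampal IP against 45.7, 46.8, 34.4 and 55.3 FPKM in hippocampal input. The log2 fold change was 1.51 (SE 0.26, adjusted p = 7.59e-05) in striatum and 1.27 (SE 0.26, adjusted p = 0.000367) in hippocampus. Ndufa1 had 13.1, 19.6, 11.5 and 11.9 FPKM in striatal IP against 34.9, 26.6, 27.5 and 22.3 FPKM in striatal input, and 21.97, 17.1, 14.5 and 12.2 FPKM in hippocampal IP against 22.1, 27.97, 28.9 and 24.4 FPKM in hippocampal input. All 4 IP values lay below all 4 input values in each region, by a margin under 1 FPKM in hippocampus, and the log2 fold change was -0.95 (SE 0.19, adjusted p = 0.000329) in striatum and -0.64 (SE 0.19, adjusted p = 0.00678) in hippocampus. Ndufa5, also short and in the matrix arm, was lower in both regions, at -0.61 (adjusted p = 0.00351) in striatum and -0.69 (adjusted p = 0.00142) in hippocampus. Its striatal call was lost without striatal inputs 971 and 974 (-0.31, adjusted p = 0.079) and without animal 974 (adjusted p = 0.0611). For Ndufa1 the hippocampal change was -0.51 when animal 974 was left out (adjusted p = 0.0654) and -0.40 when animal 977 was (adjusted p = 0.14). Ndufb9, the most abundant complex I subunit in the inputs, was lower in hippocampal IP at -0.37 (adjusted p = 0.041), a call lost without animal 970, 974 or 977 (adjusted p = 0.0874, 0.175 and 0.534), with median-ratio factors (-0.30, adjusted p = 0.108), without the filter (adjusted p = 0.0516) and with carry-over taken off (-0.19, adjusted p = 0.288). Ndufa13, Ndufb11 and Ndufv3 were higher in both, by 1.16 to 1.40 in striatum and 0.79 to 0.87 in hippocampus. Ndufs5 was the lowest subunit in all 4 groups, at 1.93 ± 0.929 FPKM in striatal IP, 1.81 ± 0.463 FPKM in hippocampal IP, 0.962 ± 0.667 FPKM in striatal input and 1.11 ± 0.136 FPKM in hippocampal input (SD, n = 4). How reads shared with near-identical gene copies were counted is not given in the sources used here, so its level is uncertain. It differed by 0.56 (adjusted p = 0.0607) in striatum, and with the animal as a block the adjusted p was 0.0403. Its striatal value was 0.69 without striatal inputs 971 and 974 (adjusted p = 0.0418).

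Of the 7 assembly factors of complex I, 1 was higher and 2 lower in striatal IP (14.3% and 28.6%), beside 33.5% and 31.4% of all genes. In hippocampal IP 0 were higher and 2 lower (0% and 28.6%), beside 30.1% and 35.5% of all genes. The shares of lower ones were thus near those of all genes, and the shares of higher ones were below them. Ndufaf4 and Ndufaf5, which act on early assembly steps, were lower in IP in both regions. Ndufaf4 had 6.98, 7.57, 7.097 and 7.04 FPKM in striatal IP against 14.8, 19.4, 25.2 and 13.2 FPKM in striatal input, and 6.03, 8.38, 5.63 and 5.97 FPKM in hippocampal IP against 13.2, 11.8, 14.6 and 11.2 FPKM in hippocampal input. The ranges did not overlap in either region, and the log2 fold change was -1.19 (SE 0.17, adjusted p = 1.04e-05) in striatum and -0.88 (SE 0.17, adjusted p = 0.000215) in hippocampus. Ndufaf5 changed by -0.88 (adjusted p = 5.67e-05) in striatum and -1.09 (adjusted p = 5.19e-06) in hippocampus. Ndufaf7, a methyltransferase, was the single factor that was higher, in striatum at 0.54 (adjusted p = 0.00131). In hippocampus its value was 0.06 (adjusted p = 0.693), and without scaling the hippocampal value turned to -0.46 and the striatal call was lost (adjusted p = 0.261).

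Complex II, succinate dehydrogenase, is the chain's link to the citrate cycle and has no mitochondrially encoded subunit. All 4 of its genes were higher in striatal IP and 3 of 4 in hippocampal IP, with medians of 1.202 and 0.960. Of all genes 33.5% and 30.1% were higher. The counts on FPKM as deposited were 3 and 2, with none lower, and without striatal inputs 971 and 974 the striatal count was 3, with none lower. Sdha, the flavoprotein with the succinate site, had 229.9, 250.3, 159 and 191 FPKM in striatal IP against 77.3, 97.3, 105 and 85.97 FPKM in striatal input. In hippocampus it had 232, 237, 188 and 197 FPKM in IP against 96.03, 94.01, 83.5 and 103 FPKM in input. The ranges did not overlap, and the log2 fold changes of 1.16 (SE 0.15, adjusted p = 4.06e-06) in striatum and 1.17 (SE 0.15, adjusted p = 3.33e-06) in hippocampus were nearly equal. Sdhc, a membrane anchor, had 133, 150.3, 97.6 and 104 FPKM in striatal IP against 43.1, 37.6, 32.4 and 44.7 FPKM in striatal input, and 138, 136, 114 and 109.9 FPKM in hippocampal IP against 43.3, 39.7, 34.4 and 43.3 FPKM in hippocampal input. It had the highest log2 fold change of the hippocampal comparison among all subunits, at 1.605 (SE 0.15, adjusted p = 9.51e-08), with 1.58 (SE 0.15, adjusted p = 1.4e-07) in striatum. Sdhb, the iron-sulfur subunit, changed by 1.24 (adjusted p = 8.72e-07) in striatum and 0.75 (adjusted p = 0.000172) in hippocampus, and the hippocampal call was lost without scaling (0.21, adjusted p = 0.214). Sdhd, the other anchor, changed by 0.75 (adjusted p = 0.00272) in striatum. That call was lost without scaling (0.42, adjusted p = 0.104) and without striatal inputs 971 and 974 (0.39, adjusted p = 0.0681), and without animal 971 the adjusted p was 0.0555. The hippocampal value of Sdhd was 0.25 (adjusted p = 0.264).

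Complex III, which passes electrons from ubiquinol to cytochrome c, had 7 of 9 subunits higher in striatal IP and 4 of 9 higher in hippocampal IP, with medians of 1.12 and 0.41 and none lower. These are 77.8% and 44.4%, beside 33.5% and 30.1% of all genes. In striatum 5 were higher and 0 lower without striatal inputs 971 and 974 (median 0.618). On FPKM as deposited the counts were 5 higher and 1 lower in striatum, and 2 higher and 3 lower in hippocampus. Uqcrc1 in hippocampus had 77.4, 74.5, 66.1 and 70.02 FPKM in IP against 28.2, 24.9, 23.3 and 30.7 FPKM in input, again without overlap. Uqcrfs1, the Rieske iron-sulfur protein, changed by 1.19 (SE 0.15, adjusted p = 2.96e-06) in striatum and 1.12 (SE 0.15, adjusted p = 4.97e-06) in hippocampus. Cyc1, which holds the haem of cytochrome c1, had 144, 147, 90.4 and 96.95 FPKM in striatal IP against 51.6, 40.2, 34.1 and 64.2 FPKM in striatal input. Its values were 146, 127, 122 and 106 FPKM in hippocampal IP and 89.4, 95, 89.6 and 99.1 FPKM in hippocampal input, where the IP library of each animal was above its own input. The log2 fold change was 1.32 (SE 0.19, adjusted p = 1.67e-05) in striatum and 0.41 (adjusted p = 0.071) in hippocampus. With striatal inputs 971 and 974 left out, the striatal value was 1.008 (adjusted p = 0.000414). The hippocampal change was called under 5 of 13 alternatives, namely median-ratio factors (0.49, adjusted p = 0.0377), only the compared groups in the fit (adjusted p = 0.00324), without animal 977 (0.67, adjusted p = 0.0196), without striatal inputs 971 and 974 (adjusted p = 0.0299) and with carry-over taken off (0.65, adjusted p = 0.00628), and it was -0.14 without scaling (adjusted p = 0.552). Uqcrh, the hinge subunit and the most abundant of complex III, averaged 145 ± 21.3 FPKM in striatal IP against 117 ± 36.6 FPKM in striatal input, and 155 ± 18.7 FPKM in hippocampal IP against 153 ± 16.1 FPKM in hippocampal input (SD, n = 4). Neither Uqcrh nor Uqcrb passed the test in either region.

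Complex IV, cytochrome c oxidase, had few higher subunits. Of its 11 nuclear subunits, 2 were higher and 4 lower in striatal IP, and 0 were higher and 5 lower in hippocampal IP, with medians of -0.06 and -0.32. The higher ones are 18.2% in striatum and 0% in hippocampus, beside 33.5% and 30.1% of all genes, while the lower ones, 36.4% and 45.5%, stand beside 31.4% and 35.5% of all genes. Without striatal inputs 971 and 974, 1 was higher and 3 were lower in striatum (median -0.226). The counts on FPKM as deposited were 1 higher and 7 lower in striatum, and 0 higher and 8 lower in hippocampus. All 3 mitochondrially encoded core subunits of the enzyme lie outside this gene set, so the members here are accessory. Cox7b, a short membrane subunit, had 65.8, 83.6, 49.7 and 62.4 FPKM in striatal IP against 104, 97.3, 112 and 86.6 FPKM in striatal input, and 81.9, 90.1, 72.8 and 62.8 FPKM in hippocampal IP against 131, 129, 129 and 123 FPKM in hippocampal input. All IP values lay below all input values, and the log2 fold change was -0.62 (SE 0.15, adjusted p = 0.00163) in striatum and -0.74 (SE 0.15, adjusted p = 0.000352) in hippocampus. Ndufa4 had 113, 124, 69.2 and 81.3 FPKM in striatal IP against 147, 141, 141 and 151 FPKM in striatal input, and 139, 143, 118 and 119 FPKM in hippocampal IP against 212, 201, 165 and 213 FPKM in hippocampal input. Its log2 fold change was -0.62 (SE 0.16, adjusted p = 0.0033) in striatum and -0.60 (SE 0.16, adjusted p = 0.00365) in hippocampus, again with no overlap. Without animal 977 neither call was kept (adjusted p = 0.0812 in striatum and 0.16 in hippocampus).

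Cox6c and Cox7c were also lower in IP in both regions, at -0.54 and -0.41 in striatum and -0.45 and -0.43 in hippocampus. The striatal call of Cox6c was lost without striatal inputs 971 and 974 (adjusted p = 0.0743), without animal 974 (-0.25, adjusted p = 0.175) without animal 977 (adjusted p = 0.072) and with only the compared groups in the fit (adjusted p = 0.0568). Its hippocampal call was lost without animal 970 (adjusted p = 0.107), without animal 977 (-0.26, adjusted p = 0.327), with median-ratio factors (-0.38, adjusted p = 0.0684) and with carry-over taken off (-0.28, adjusted p = 0.211). Cox7a2 was lower in hippocampus, at -0.63 (adjusted p = 0.00312), and its striatal value was -0.062 (adjusted p = 0.758). The hippocampal call of Cox7a2 was lost without animal 977 (-0.44, adjusted p = 0.102). Cox4i1, the regulatory subunit 4, and Cox5a were the subunits that were higher, both in striatum. Their hippocampal values were 0.31 (adjusted p = 0.346) for Cox4i1 and 0.38 (adjusted p = 0.0612) for Cox5a. In striatum Cox4i1 changed by 0.86 (adjusted p = 0.0139) and Cox5a by 0.73 (adjusted p = 0.0013). The striatal inputs of Cox4i1 were 93.5, 40.2, 34.1 and 98.7 FPKM, with animals 971 and 974 low, against 124, 141, 81.4 and 99.4 FPKM in striatal IP. Without those 2 inputs the change was 0.18 (adjusted p = 0.404), and the call was also lost without scaling (0.51, adjusted p = 0.165) and without animal 971 (0.55, adjusted p = 0.182). Cox6b1 differed by 0.81 (adjusted p = 0.0596) in striatum, and with the animal as a block the adjusted p was 0.0441. Its value was -0.073 without striatal inputs 971 and 974 (adjusted p = 0.724). Cox8a, the most abundant complex IV subunit in hippocampus, averaged 189.6 ± 21.5 FPKM in hippocampal IP against 225 ± 12.8 FPKM in hippocampal input (SD, n = 4), a difference of -0.25 (adjusted p = 0.2). Cox6a1, the usual isoform of subunit 6a and the most abundant complex IV subunit in striatal input, averaged 152 ± 33.5 FPKM in striatal IP against 164 ± 34 FPKM in striatal input, a difference of -0.10 (adjusted p = 0.599). Cox5b, the least abundant subunit of the complex, averaged 46.2 ± 10.6 FPKM in striatal IP against 46.6 ± 4.02 FPKM in striatal input, and 48.4 ± 5.18 FPKM in hippocampal IP against 57.6 ± 5.98 FPKM in hippocampal input.

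Cox7a2l, which holds complexes III and IV together in supercomplexes, was lower in IP in both regions, at -0.64 (SE 0.11, adjusted p = 5.49e-05) in striatum and -0.91 (SE 0.11, adjusted p = 9.74e-07) in hippocampus. Atp5s and Atp5sl did not pass the test in either region.

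Complex V, the ATP synthase, had 8 of 15 subunits higher in striatal IP and 7 of 15 in hippocampal IP, with medians of 0.61 and 0.50 and none lower. These are 53.3% and 46.7%, beside 33.5% and 30.1% of all genes higher and 31.4% and 35.5% lower. In striatum 8 were higher and 0 lower without striatal inputs 971 and 974 (median 0.552). On FPKM as deposited the counts were 6 higher and 2 lower in striatum, and 1 higher and 5 lower in hippocampus. Atp5b, the catalytic beta subunit, was the most abundant member in all 4 groups. It had 1447, 1497, 991 and 1027 FPKM in striatal IP against 676, 570.0, 557 and 739 FPKM in striatal input, and 1367, 1431, 1154 and 1222 FPKM in hippocampal IP against 754, 752, 717 and 858 FPKM in hippocampal input. The groups did not overlap, and the log2 fold change was 0.95 (SE 0.16, adjusted p = 7.22e-05) in striatum and 0.75 (SE 0.16, adjusted p = 0.000647) in hippocampus. Without scaling the hippocampal call was lost (0.19, adjusted p = 0.258). Atp5a1, the alpha subunit, changed by 1.03 (adjusted p = 7.12e-06) in striatum and 0.99 (adjusted p = 9.74e-06) in hippocampus, and Atp5o, which links the F1 head to the stator stalk, by 0.99 (adjusted p = 3.69e-06) and 0.73 (adjusted p = 8.2e-05). Atp5c1, the gamma subunit of the rotating stalk, changed by 0.48 (adjusted p = 0.0127) in striatum and 0.52 (adjusted p = 0.00784) in hippocampus.

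Atp5d, the delta subunit of the central stalk, had 229.8, 220.5, 137 and 162 FPKM in striatal IP against 76.4, 33.3, 14.6 and 89 FPKM in striatal input. The inputs of animals 971 and 974 were the lowest, and the log2 fold change was 2.07 (SE 0.40, adjusted p = 0.000248). Without these inputs it was 1.14 (adjusted p = 0.000286). In hippocampus it was 0.92 (adjusted p = 0.0505), and with the animal as a block the adjusted p was 0.025. The hippocampal adjusted p was 0.000222 without striatal inputs 971 and 974 and 0.000111 with only the compared groups in the fit. It was not called under every alternative. Atp5e, the other small stalk subunit, differed by 0.013 (adjusted p = 0.957) in striatum and -0.23 (adjusted p = 0.29) in hippocampus. The exons of Atp5a1, Atp5d and Atp5o overlap opposite-strand genes.

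The c ring that turns in the membrane is encoded by Atp5g1, Atp5g2 and Atp5g3, whose mature proteins are identical. Atp5g3 made up 84.2 ± 0.729% of their summed FPKM in striatal IP against 84.03 ± 8.02% in striatal input, and 85.8 ± 1.605% in hippocampal IP against 76.6 ± 4.12% in hippocampal input (SD, n = 4). It was higher in IP in both regions, at 0.62 (adjusted p = 0.000395) in striatum and 0.48 (adjusted p = 0.00283) in hippocampus, and its hippocampal value turned to -0.071 without scaling. Atp5g2 changed by 0.97 (adjusted p = 0.0389) in striatum, a call lost without striatal inputs 971 and 974 (0.18, adjusted p = 0.348), without scaling and without animal 970, 971 or 974 (adjusted p = 0.063, 0.123 and 0.084). Atp5g1 had 25.1, 30.8, 26.3 and 24.4 FPKM in hippocampal IP against 39.5, 44.4, 33.6 and 47.5 FPKM in hippocampal input, with no overlap. Its striatal values were 31.1, 33.5, 22.7 and 25.99 FPKM in IP and 27.1, 13.7, 8.77 and 30.96 FPKM in input, with the inputs of 971 and 974 low and the others within the IP range. The log2 fold change was 0.61 (adjusted p = 0.0638) in striatum and -0.61 (adjusted p = 0.0664) in hippocampus, and the difference between the regions was 1.22 (adjusted p = 0.0502). With the animal as a block these adjusted p-values were 0.0443, 0.0459 and 0.0339. Without striatal inputs 971 and 974 the striatal value of Atp5g1 was -0.047 (adjusted p = 0.817). In that fit its hippocampal value was -0.61 (adjusted p = 0.000882), and the difference between the regions was not called.

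The shares of the complexes within the chain do not depend on the scaling of a library. Complex IV made up 16.2 ± 0.965% of the summed FPKM of the 75 subunits in striatal IP against 25.1 ± 0.459% in striatal input, and 16.9 ± 0.3801% in hippocampal IP against 26.2 ± 0.796% in hippocampal input (SD, n = 4 each). The highest IP share, 17.4%, was below the lowest input share, 24.7%. Complex V took 42.7 ± 1.09% in striatal IP against 36.2 ± 1.12% in striatal input, and 41.9 ± 0.1401% in hippocampal IP against 34.7 ± 0.456% in hippocampal input. Complex II took 6.74 ± 0.115% in striatal IP against 4.22 ± 0.379% in striatal input, and 6.38 ± 0.0671% in hippocampal IP against 3.76 ± 0.189% in hippocampal input. The shares of complexes II and V were thus higher, and that of complex IV lower, in every IP library than in every input library. Complex III took 11.8 ± 0.144% in striatal IP against 10.1 ± 0.861% in striatal input, and 11.7 ± 0.269% in hippocampal IP against 11.1 ± 0.215% in hippocampal input. Complex I took 22.5 ± 0.371% in striatal IP against 24.4 ± 0.664% in striatal input, and 23.02 ± 0.309% in hippocampal IP against 24.2 ± 0.525% in hippocampal input. No test was made on these sums over members.

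**Figure D2:**
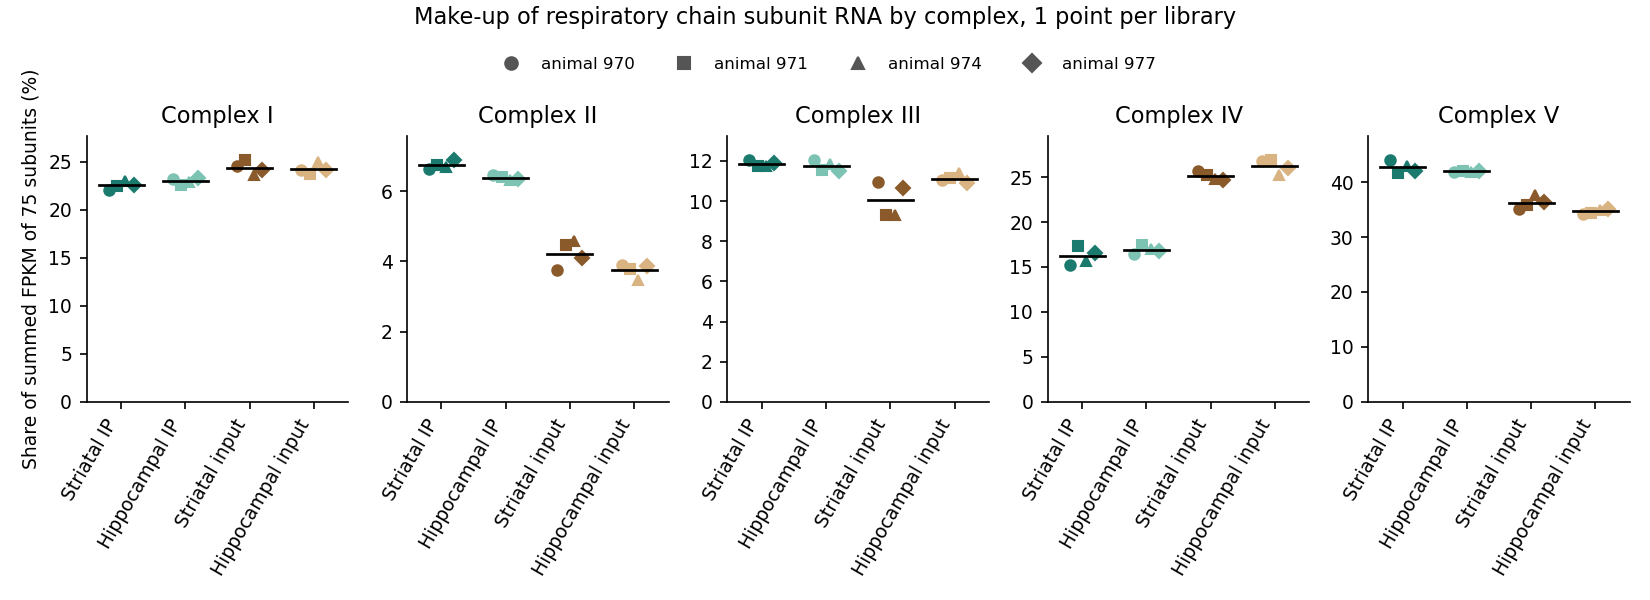
Share of the summed FPKM of 75 subunits that falls to each complex (vertical axes, percent, each from 0), 1 point per library with the animal as symbol and the group mean as a bar. Complex IV lies at 15.2 to 17.4% in the IP libraries and at 24.7 to 26.9% in the inputs, and complex II at 6.31 to 6.90% and 3.48 to 4.59%.

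Within complexes I and V, the core subunits and the F1 part held larger shares in IP than in input. The 7 core subunits held 23.3 ± 0.797% of complex I FPKM in striatal IP against 15.7 ± 1.47% in striatal input, and 22.3 ± 0.401% in hippocampal IP against 15.7 ± 0.8297% in hippocampal input. The F1 head and central stalk of complex V (alpha to epsilon) held 69.8 ± 1.11% in striatal IP against 61.99 ± 2.65% in striatal input, and 68.95 ± 1.01% in hippocampal IP against 62.8 ± 2.04% in hippocampal input. Atp5b alone held 46.5 ± 0.7996% of complex V FPKM in striatal IP against 41.8 ± 2.12% in striatal input. Its share was 45.7 ± 1.36% in hippocampal IP against 41.8 ± 1.42% in hippocampal input. The members as a whole summed to 6356 ± 1266 FPKM in striatal IP against 4302 ± 442 FPKM in striatal input, and 6848 ± 663 FPKM in hippocampal IP against 5440 ± 256 FPKM in hippocampal input (SD, n = 4). As a share of all summed FPKM, which no scaling touches, they were 2.337 ± 0.148% in striatal IP against 2.174 ± 0.375% in striatal input, and 2.27 ± 0.07% in hippocampal IP against 2.68 ± 0.10% in hippocampal input. The direction for the whole set in hippocampus thus depends on the scale.

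Coding length moved with these changes. Median coding length was 249 bases for complex IV subunits, 333 for complex III, 411 for accessory and 789 for core subunits of complex I, 438 for complex V and 676.5 for complex II. Across the 90 members, Spearman's rho between coding length and the log2 fold change was 0.409 in striatum and 0.426 in hippocampus, beside 0.018 and 0.040 across 11902 tested genes. Members share libraries and are not independent, so no p is given. Of 20 members with under 300 coding bases, 5 were higher and 6 lower in striatum, and 2 were higher and 7 lower in hippocampus. Their median log2 fold changes were 0.011 and -0.139, beside -0.212 and -0.438 for all genes of that length. Of 13 members with 1000 or more coding bases, 12 were higher and 1 lower in striatum, and 10 were higher and 1 lower in hippocampus. Their medians were 1.15 and 0.80, beside 0.058 and -0.032 for all genes of that length. The relation held inside complex V (0.721 and 0.861 over 15 subunits), complex IV (0.609 and 0.627 over 11) and complex I (0.380 and 0.431 over 36). The part of length in the difference between complexes was not tested.

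**Figure D3:**
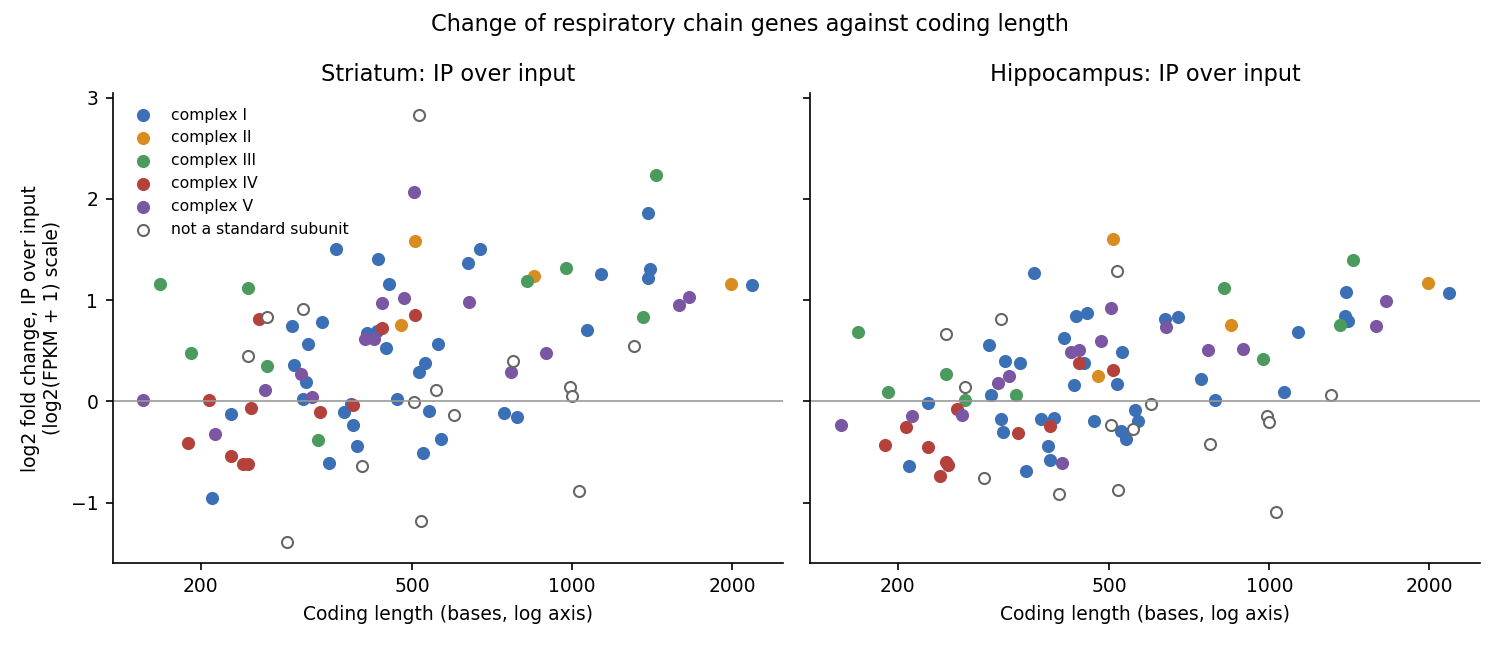
Log2 fold change of IP over input (vertical axis, log2(FPKM + 1) scale) against coding length in bases (logarithmic horizontal axis) for the 90 tested members, coloured by complex, in striatum and hippocampus. Members with 1000 or more coding bases have a median of 1.15 in striatum and 0.80 in hippocampus, those under 300 bases 0.011 and -0.139. All values move down where no scaling is used, with the all-gene median at -0.246 and -0.513.

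The tissue isoforms of complex IV were low, and 5 of the 8 genes were tested. Cox6a2 and Cox7a1, are isoforms known from heart and muscle. Cox6a2 had 0.0913, 0, 0 and 0 FPKM in striatal IP against 1.28, 3.15, 1.47 and 1.17 FPKM in striatal input, and 0.185, 0, 0.0911 and 0 FPKM in hippocampal IP against 0.386, 0.8504, 1.12 and 0.931 FPKM in hippocampal input. No IP library reached 1 FPKM, so Cox6a2 passed the filter through the inputs alone, where it is high. It counts among the lower members above, but its difference is given as values with no test. Cox6a2 overlaps an opposite-strand gene. Cox7a1 changed by 0.84 (adjusted p = 0.0401) in striatum and by 0.14 (adjusted p = 0.734) in hippocampus, and its striatal call was lost without striatal inputs 971 and 974 (0.55, adjusted p = 0.27), without scaling (0.65, adjusted p = 0.128) and without animal 970, 971 or 974 (adjusted p = 0.209, 0.0956 and 0.0707). Cox6b2, an isoform best known from testis, had 1.06, 1.36, 1.14 and 0.8899 FPKM in striatal IP against 0.0758, 0.101, 0.0762 and 0.243 FPKM in striatal input, with no overlap, and 1.54, 1.39, 0.795 and 0.846 FPKM in hippocampal IP against 0.374, 0.227, 0.02897 and 0.215 FPKM in hippocampal input. It passed the filter through the IP libraries alone, so it too is given as values with no test, although it counts among the higher members above. It made up 1.56 ± 0.142% of the Cox6b pair in striatal IP. Cox7b2 differed by 0.45 (adjusted p = 0.224) in striatum and 0.67 (adjusted p = 0.0721) in hippocampus, and with the animal as a block the hippocampal adjusted p was 0.00743. Cox8b ranged from 0.161 to 1.85 FPKM in IP and from 0 to 2.001 FPKM in input.

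Cox4i2, the isoform of subunit 4 known from lung and for its response to low oxygen, was the member called between the astrocyte IPs of the striatum and the hippocampus. Its FPKM was 16.01, 21.7, 12.4 and 11.01 in striatal IP against 2.95, 3.36, 2.48 and 4.44 in hippocampal IP. It was 2.32, 0.441, 1.001 and 1.54 in striatal input and 1.75, 0.221, 1.14 and 0.282 in hippocampal input. Every striatal IP library was above every other library, and each hippocampal IP library was above each input library. The log2 fold change of striatal IP over hippocampal IP was 1.89 (SE 0.29, adjusted p = 0.000274), and its 95% interval ran from 1.28 to 2.51. IP over input gave 2.83 (SE 0.29, adjusted p = 2.88e-07) in striatum and 1.29 (SE 0.29, adjusted p = 0.000977) in hippocampus. The regional difference between the IPs was called under all 13 alternatives tried, with values from 1.74 to 2.16. Set against its partner, Cox4i2 was 11.99 ± 1.605% of the summed FPKM of Cox4i2 and Cox4i1 in striatal IP against 2.63 ± 0.788% in hippocampal IP (SD, n = 4). In the inputs it was 1.97 ± 0.806% in striatum and 0.842 ± 0.703% in hippocampus. Cox4i1 itself averaged 112 ± 26.4 FPKM in striatal IP against 124 ± 12.4 FPKM in hippocampal IP, a log2 fold change of -0.17 (adjusted p = 0.774).

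Cox4i2 is also known from pericytes, so mural markers are given beside it. The summed FPKM of the 4 markers was 11.5 to 13.6 in striatal IP and 11.8 to 12.8 in hippocampal IP, against 2.16 to 5.57 in striatal input and 2.80 to 3.98 in hippocampal input. Pdgfrb made up most of it, at 10.4 ± 1.12 FPKM in striatal IP and 10.4 ± 0.55 FPKM in hippocampal IP (SD, n = 4), a log2 fold change of -0.0087 (adjusted p = 0.984). It was higher in IP than in input, by 2.62 in striatum and 2.44 in hippocampus. The other 3 markers, Tagln, Acta2 and Myh11, had lower means in IP than in input in both regions. Tagln averaged 1.61 FPKM in striatal IP against 2.09 FPKM in striatal input, and 1.18 FPKM in hippocampal IP against 1.27 FPKM in hippocampal input, and was not called. Acta2 and Myh11 stayed below the filter, with means of at most 0.910 and 0.122 FPKM in any group. The part of mural cells in the Cox4i2 signal was not tested.

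**Figure D4:**
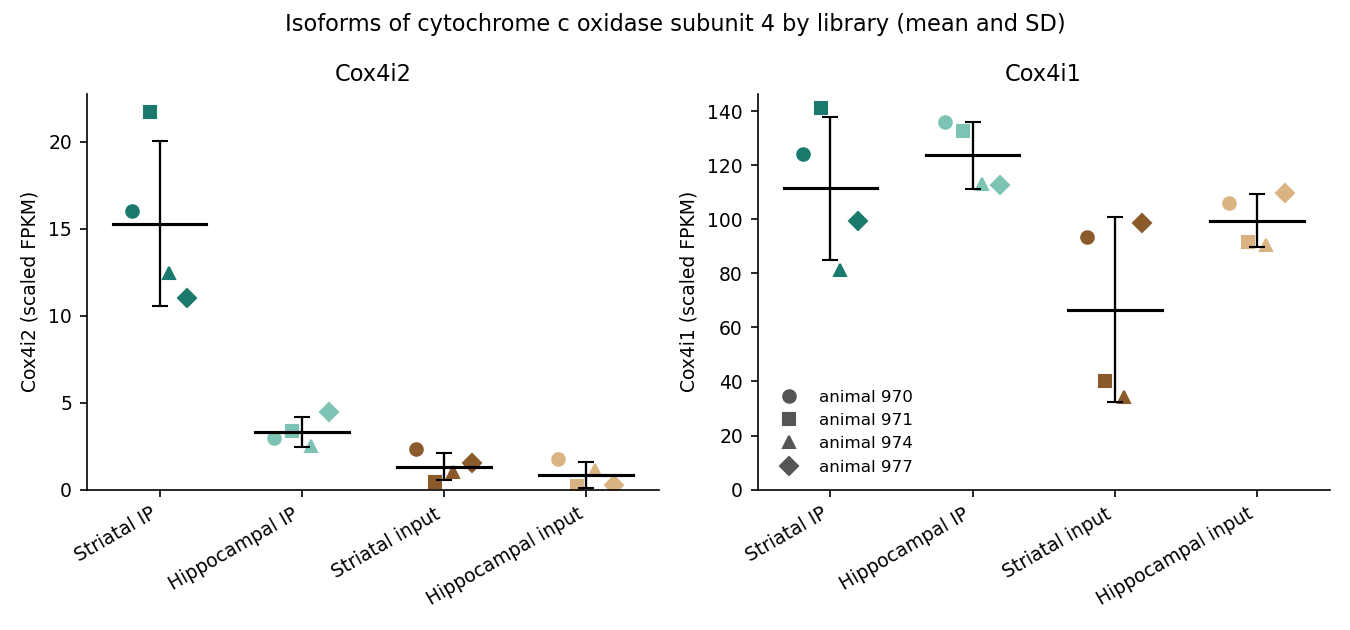
Scaled FPKM (vertical axes, from 0) of Cox4i2 and Cox4i1 in each library by group, with the animal as symbol, the mean as a long bar and the SD as an error bar (n = 4). Cox4i2 lies at 11.01 to 21.7 FPKM in striatal IP and at 2.48 to 4.44 FPKM in hippocampal IP, and Cox4i1 overlaps between the IPs.

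Between the astrocyte fractions of the regions the other members did not pass the test. Of 90 members, Cox4i2 alone was called between striatal IP and hippocampal IP, being higher (1.1%), beside 12.6% of all genes (7.18% higher and 5.38% lower), and 0 of the 75 standard subunits were called. Unadjusted p was under 0.05 for 4 members, namely Cox4i2, Ndufc2 (-0.56), Ndufaf6 (0.57) and Ndufa4 (-0.45). The 95% intervals of 86 members lay within a 2-fold change in either direction, and 63 within 1.5-fold, so these intervals hold no larger difference. The median log2 fold change was -0.10, beside -0.016 for all genes, and 66 of the 75 subunits had negative values. Without scaling the median turned to 0.060, beside 0.106 for all genes. With the animal as a block 3 members were called, among them Ndufa4 at -0.45 (adjusted p = 0.0376) and Cox7b2 at -0.66 (adjusted p = 0.0354). Without striatal inputs 971 and 974, which take no part in this comparison but in its variance, 4 were called. Marker lists moved between the IPs as well. Of 10 astrocyte markers 5 were lower in striatal IP and 0 higher, of 8 oligodendrocyte markers 5 were higher and 0 lower, and of 12 pan-neuronal markers 1 was higher and 2 lower. The summed oligodendrocyte markers ran from 91.9 to 136.4 FPKM in striatal IP and from 87.5 to 91.7 FPKM in hippocampal IP. Most of the hippocampal sum is Cnp, which averaged 51.7 FPKM in striatal IP and 69.03 FPKM in hippocampal IP. Their part was not tested.

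Whole tissue differed more. In striatal input 35 members were lower and 3 higher than in hippocampal input (38.9% and 3.3%), beside 21.8% and 14.5% of all genes, and the median log2 fold change was -0.36, beside -0.070 for all genes. Atp5d (-1.24), Atp5g1 (-1.15), Cox6b1 (-1.13), Ndufv1 (-1.03) and Cyc1 (-0.997) had the most negative values. The assembly factor Ndufaf1 (-0.36, adjusted p = 0.0438) and Cox6a1 (-0.45, adjusted p = 0.0413) were also lower. Ndufs3 (0.42) and Ndufaf4 (0.45) were higher, and Cox6a2, which passed the filter through the inputs, was the third. The count rests largely on 2 libraries: without the striatal inputs of animals 971 and 974, 7 of 90 members were lower and 0 higher. The 7 were Atp5g1, Cyc1, Ndufa10, Ndufa5, Ndufab1, Ndufb6 and Ndufs7. In that fit 25.3% of all genes were called, and the median of the members was -0.20, beside -0.060 for all genes. With the animal as a block, Cox4i1 (-0.72, adjusted p = 0.0334) and Cox7b (-0.36, adjusted p = 0.0462) were called too. Pan-neuronal markers were lower in striatal input for 6 of 12, with a summed level of 1840 to 2589 FPKM in striatal input and 3906 to 4061 FPKM in hippocampal input. Oligodendrocyte markers were higher for 5 of 8, and the part of either in the result was not tested.

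**Figure D5:**
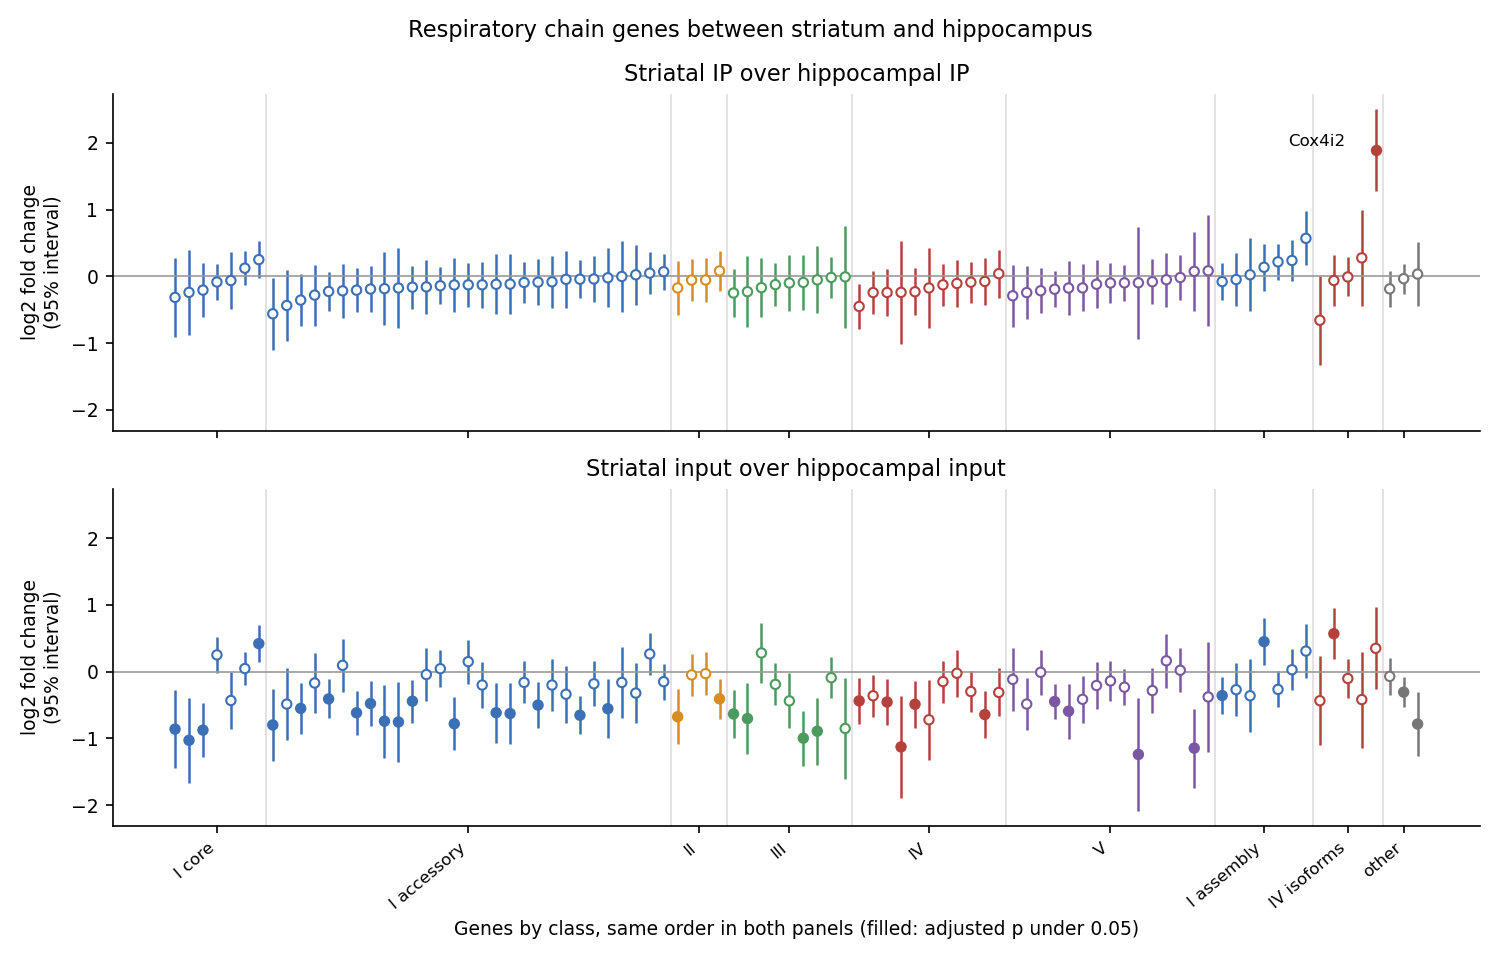
Log2 fold change with its 95% interval for each tested member, striatal IP over hippocampal IP (upper panel) and striatal input over hippocampal input (lower panel), with members in the same order by class. Filled points have an adjusted p under 0.05: 1 member in the upper panel, Cox4i2, and 38 in the lower. Without striatal inputs 971 and 974 the numbers are 4 and 7.

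The IP-over-input change itself was also compared between regions. It was larger in striatum for 3 of 90 members (3.3%), beside 8.47% of all genes, and smaller for none, beside 5.33%. These were Cox4i2 at 1.54 (SE 0.41, adjusted p = 0.0189), Cyc1 at 0.91 (SE 0.27, adjusted p = 0.0375) and Ndufa10, an accessory subunit of complex I, at 0.61 (SE 0.19, adjusted p = 0.0451). Ndufa10 had 100.1, 107, 76.7 and 76.03 FPKM in striatal IP against 50.99, 60.5, 48.2 and 58.4 FPKM in striatal input, and 103, 100.4, 79.7 and 85.8 FPKM in hippocampal IP against 83.3, 79.5, 88.4 and 93.1 FPKM in hippocampal input. Its IP levels in the regions overlapped, while its striatal inputs lay below its hippocampal inputs in every animal. None of these calls was kept without striatal inputs 971 and 974, and leaving out animals 970, 971 or 974 each left 0 members, and animal 977 left 1. The higher counts in striatum than in hippocampus for complexes I and III therefore do not show a difference between regions.

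Genes around the chain were taken from lists written with earlier results of these data known. The citrate cycle, which feeds complexes I and II, had 12 of 14 enzymes higher in striatal IP and 11 in hippocampal IP and none lower, with medians of 1.36 and 0.96, beside 33.5% and 30.1% of all genes higher. The striatal count was also 12 without striatal inputs 971 and 974. Idh2, the mitochondrial NADP-dependent isocitrate dehydrogenase, averaged 57.3 ± 16.2 FPKM in striatal IP against 3.96 ± 1.804 FPKM in striatal input, and 80.6 ± 16.1 FPKM in hippocampal IP against 5.33 ± 0.698 FPKM in hippocampal input (SD, n = 4). Suclg2, the GTP-forming succinyl-CoA ligase subunit, changed by 3.38 (SE 0.16, adjusted p = 6.79e-11) in striatum and 3.62 (SE 0.16, adjusted p = 2.15e-11) in hippocampus, more than any subunit of the chain. Citrate synthase (Cs) changed by 2.39 (adjusted p = 2.22e-09) and 2.03 (adjusted p = 1.18e-08). Enzymes that bring electrons to ubiquinone by other routes had 6 of 7 tested genes higher in each region (85.7%), and 6 in striatum without striatal inputs 971 and 974. Sqrdl is 1 of the 6 but passed the filter through the IP libraries alone, so it is given as values with no test. It averaged 3.48 FPKM in striatal IP against 0.397 FPKM in striatal input, and 3.63 FPKM in hippocampal IP against 0.333 FPKM in hippocampal input. Prodh, which oxidises proline, averaged 60.6 ± 13.7 FPKM in striatal IP against 4.39 ± 2.104 FPKM in striatal input, and 53.97 ± 7.68 FPKM in hippocampal IP against 5.06 ± 0.513 FPKM in hippocampal input. Etfdh, the ubiquinone oxidoreductase of fatty acid oxidation, changed by 1.98 (adjusted p = 1.57e-08) in striatum and 2.06 (adjusted p = 8.15e-09) in hippocampus. None of these 21 tested genes was called between the IPs by limma.

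Assembly genes were called about as often as other genes or less often. Of 26 tested genes for cytochrome c and the assembly of complexes III and IV, 5 were higher and 9 lower in striatal IP, and 3 were higher and 9 lower in hippocampal IP. These are 19.2% and 34.6% in striatum and 11.5% and 34.6% in hippocampus, beside 33.5% and 31.4% of all genes in striatum and 30.1% and 35.5% in hippocampus, so the shares of lower genes were near the background. Cox10, which makes the haem of complex IV, was higher, at 1.67 (adjusted p = 1.62e-08) in striatum and 1.31 (adjusted p = 2.31e-07) in hippocampus, and Coa5, an assembly factor of the same enzyme, was lower, at -1.36 (adjusted p = 1.47e-07) and -0.81 (adjusted p = 4.14e-05). Of 13 assembly genes of complexes I, II and V without the member prefixes, 4 were higher and 5 lower in each region (30.8% and 38.5%), shares near those of all genes. Acad9, which assembles complex I, changed by 1.74 (adjusted p = 2.01e-08) in striatum and 1.46 (adjusted p = 1.31e-07) in hippocampus. Atpif1, the inhibitor of ATP hydrolysis by complex V, averaged 24.6 ± 1.64 FPKM in striatal IP against 82.99 ± 15.5 FPKM in striatal input, and 27.2 ± 3.08 FPKM in hippocampal IP against 94.6 ± 4.59 FPKM in hippocampal input. Its log2 fold change was -1.699 (SE 0.13, adjusted p = 7.24e-09) in striatum and -1.77 (SE 0.13, adjusted p = 3.54e-09) in hippocampus, the opposite direction to Atp5a1 and Atp5b. Of 11 tested genes of coenzyme Q synthesis, 4 were higher and 1 lower in striatum, and 3 were higher and 4 lower in hippocampus. These are 36.4% and 9.1% in striatum and 27.3% and 36.4% in hippocampus. Without striatal inputs 971 and 974 the striatal counts were 4 higher and 7 lower for the 26, 3 and 4 for the 13 and 4 and 1 for the 11.

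Carriers, channels and uncoupling proteins that exchange nucleotides, phosphate or protons with the cytosol had 5 of 10 higher and 4 lower in striatal IP (50% and 40%), and 4 higher and 4 lower in hippocampal IP (40% each), beside 33.5% and 31.4% of all genes in striatum and 30.1% and 35.5% in hippocampus. Leaving out striatal inputs 971 and 974 gave 4 higher and 3 lower in striatum. Slc25a3, the phosphate carrier, changed by 1.21 (adjusted p = 1.82e-07) in striatum and 0.95 (adjusted p = 2.75e-06) in hippocampus, and Ckmt1, a mitochondrial creatine kinase known from neurons, by -2.55 (adjusted p = 5.14e-06) and -3.58 (adjusted p = 8.38e-08). This list had 3 genes called between the IPs, all higher in striatum (30%), beside 7.18% of all genes. Ucp2, an uncoupling-protein homologue, averaged 10.2 ± 4.35 FPKM in striatal IP against 3.005 ± 0.751 FPKM in hippocampal IP, a log2 fold change of 1.41 (SE 0.31, adjusted p = 0.00581). Slc25a27 and Slc25a14, related carriers, changed by 1.004 (adjusted p = 0.0336) and 0.44 (adjusted p = 0.0288), and both were lower in IP than in input in each region.

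Of 15 tested regulators and genes of mitochondrial DNA upkeep, 4 were higher and 4 lower in striatal IP, and 3 were higher and 2 lower in hippocampal IP. These are 26.7% each in striatum and 20% and 13.3% in hippocampus, at or below the shares of all genes. Leaving out striatal inputs 971 and 974 gave 5 higher and 4 lower in striatum. Ppargc1a, a coactivator of mitochondrial biogenesis, averaged 29.3 ± 4.49 FPKM in striatal IP against 16.6 ± 4.71 FPKM in striatal input, and 42.6 ± 5.703 FPKM in hippocampal IP against 15.6 ± 0.9697 FPKM in hippocampal input. It was higher in IP in both regions (0.81 and 1.39) and lower in striatal IP than in hippocampal IP, at -0.53 (SE 0.17, adjusted p = 0.0471). Gabpa, a factor of the ETS motif, was higher in IP by 1.18 (adjusted p = 6.79e-06) in striatum and 1.696 (adjusted p = 8.75e-08) in hippocampus, but its exons overlap those of the member Atp5j. Nrf1, the factor of the NRF1 motif, averaged 0.9096 ± 0.0369 FPKM in striatal IP against 1.04 ± 0.127 FPKM in striatal input and did not pass the test, at -0.093 (adjusted p = 0.454). The mitochondrially encoded subunits were not analysed here.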

How the data were processed

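Paired-end RNA-seq was made from 16 libraries, an HA IP and an input from striatum and hippocampus of each of 4 mice. Per the labels' protocols, mRNA-enriched libraries came from 100 ng of RNA and the Ovation RNA-Seq System V2 of Nugen, a kit that does not mark strand. Base calling with bcl2fastq 2.17, STAR and HTSeq on mm10 are named per the submitters' processing notes, without their settings. The deposited tables are FPKM made by the authors, 1 table per library. No label names this unit: it rests on the description of the tables and on low values that fall on whole-fragment steps given GENCODE gene length. No counts were used, so no count test was run.

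Each library was divided by a trimmed-mean factor (0.7459 to 1.303, trimming 30% of log ratios and 5% of levels), and genes under 1 FPKM in more than 12 libraries were left out. For the remaining 13470, log2(FPKM + 1) entered limma 3.58.1 (R 4.3.3), 16 libraries in 1 fit with 12 residual degrees of freedom, with trended, robust variance and Benjamini-Hochberg adjustment over all genes tested. The 5 comparisons were IP over input per region, striatum over hippocampus per fraction, and how far the IP-over-input changes differed between regions. The fit was tested on simulated data. Intervals are 95% intervals. Figures were drawn with matplotlib 3.10.9 in Python 3.11.15 from tables read with pandas 2.3.3.

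The members and lists were chosen with earlier results of these data known. Named were all of complex II, per complex and comparison the 2 called members with the largest change in each direction at a group mean of at least 5 FPKM, all members called between the IPs or in the difference, the isoform families, the highest and lowest subunit of each complex, and up to 3 called genes per list with the smallest p. Other genes are named where they complete a count and were chosen after their values were seen. Results of 1 member are not reported here.

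Libraries of the same animal are paired by the labels. Same-animal correlations of deviations from group means were 0.308 to 0.532 for the IPs, 0.0535 to 0.319 for the inputs, 0.0850 to 0.172 for IP and input of hippocampus and -0.0082 to 0.0847 for those of striatum. The main fit leaves this pairing out, so its p-values rest on the spread between libraries within groups, pooled over the 4 groups. The animal as a block is an alternative.

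Coding lengths and exon overlaps were taken from GENCODE vM21 and promoters from RefSeq (GRCm38.p6). Of the members, 32 have exons that overlap another gene, 29 of them on the opposite strand. The 32 include Ndufs1, Ndufs3, Ndufa13, Ndufb9, Ndufb11, Uqcrb, Cox4i1, Cox5a, Cox6a2, Cox6c, Atp5a1, Atp5d, Atp5g2 and Atp5o. Promoter sequences were not used for 17 members, and protein sequences were not used here. Alternatives were the FPKM as deposited, median-ratio factors, a pseudocount of 0.1, no filter, the animal as block, plain eBayes, only the compared groups in the fit, each animal left out, striatal inputs 971 and 974 left out, and neuronal carry-over taken off.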

Additional observations from a re-analysis of the deposited data

Results flagged for a closer look

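Among 192 groups of 4 libraries, of the named members and of the shares of the 5 complexes, 9 held a library whose gap to its nearest neighbour exceeded the share of the group's range set by Dixon's 95% critical value, and chance gives about 1 in 20. Most concern low genes. Ndufaf4 was 8.38 FPKM in the hippocampal IP of animal 971, with the other 3 at 5.63 to 6.03 FPKM. Cox6c was 133.2 FPKM in the striatal input of animal 974 and 117.6 FPKM in the hippocampal input of animal 970, each the highest of its group. Cox8a was 205.7 FPKM in the hippocampal input of animal 974, the lowest of its group. Cox6a2 was 0.0913 FPKM in the striatal IP of animal 970, where the others are listed at 0, and 3.16 FPKM in the striatal input of animal 971. Cox6b2 was 0.243 FPKM in the striatal input of animal 977, the highest of its group. Cox7b2 was 0.775 FPKM in the hippocampal IP of animal 974, and Ndufs5 was 0.542 FPKM in the striatal IP of animal 977, each the lowest of its group.

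The IP-over-input change was larger in striatum than in hippocampus by the test of the difference for Cox4i2 (1.54 on the log2 scale, adjusted p = 0.0189 by limma), Cyc1 (0.91, adjusted p = 0.0375) and Ndufa10 (0.61, adjusted p = 0.0451). Over the 13 alternatives these were called in 8, 6 and 4. The ranges were 1.16 to 1.96 for Cox4i2 (adjusted p = 0.0111 to 0.246), 0.59 to 1.11 for Cyc1 (adjusted p = 0.0153 to 0.29) and 0.49 to 0.82 for Ndufa10 (adjusted p = 0.00275 to 0.196).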

How the results depend on the processing

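Values of the 43 named members that were tested, under 13 alternatives, numbered 2780. Of these, 2546 kept their side of the threshold, 158 lost their call, 70 gained one and 6 reversed. The 2546 include 114 values that changed sign and were called in neither fit. All 6 reversals came in hippocampal IP over hippocampal input without scaling: Ndufaf7 -0.455, Ndufs3 -0.530, Ndufa10 -0.460, Atp5g3 -0.071, Uqcrh -0.539 and Uqcrb -0.467. Members called numbered 44 in hippocampus and 55 in striatum for IP over input, and leaving out each animal gave 30 to 42 and 42 to 56. Without striatal inputs 971 and 974 these counts were 53 and 46, and with only the compared groups in the fit 59 and 45. Between the IPs, 1 became 3 with the replicate block and 4 without striatal inputs 971 and 974. Between the inputs, 38 became 23 with median-ratio factors, 17 with only those groups in the fit, 7 without striatal inputs 971 and 974, 21 with carry-over taken off and 9 to 23 with each animal left out. For the difference of changes, 3 became 8 without scaling, 1 each with median-ratio factors, a pseudocount of 0.1 or no filter, 0 without striatal inputs 971 and 974, and 0 to 1 with each animal left out. The replicate block, which pairs libraries by animal, gave 58 calls in striatum, 48 in hippocampus, 41 between the inputs and 4 for the difference. Among the 47 subunits whose exons overlap no other gene, chosen after seeing the data, IP minus input shares in percentage points were 3.70 for complex II and -11.18 for complex IV in striatum (2.52 and -8.88 with all 75), and 3.88, -11.51 and 6.57 for complexes II, IV and V in hippocampus (2.62, -9.29 and 7.27). Depth is not recorded in the tables and was estimated. The cause of the low striatal inputs was not tested.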
